A study of Mus musculus with 8 samples.

Results

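Interferon-stimulated genes are the genes that a cell switches on when it senses interferon, and 43 of them were followed here in 4 isogenic mouse mammary tumour lines. They were taken as a list of gene symbols matched by Entrez identifier to the 27179 rows of the count table. The rule uses no measured value, but the list was drawn up with earlier results of these data known. All 43 were found, and all 43 were among the 13928 genes tested. The groups were cultures of the lines 4T1.2, 4T1, 66cl4 (spelled 66c14 in some of the labels) and 67NR, with 2 biological replicates of each and RNA-seq of total RNA from every culture. No treatment is given for any culture, so no interferon was added as far as the labels say, and neither a transgene nor a deletion is listed for any line. The study sets the more metastatic lines 4T1 and 4T1.2 against 66cl4 and 67NR, which have a lower metastatic potential, to find what the tumour cells express. Because the samples are established lines grown in culture, they do not model the stroma and immune cells of a tumour, and protein was not measured. Within a line, a difference in bulk RNA between more expressing cells and more RNA per cell cannot be told apart.

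As background, type I interferons bind a receptor made of IFNAR1 and IFNAR2, which activates the kinases JAK1 and TYK2. The kinases phosphorylate STAT proteins, STAT2 among them, which enter with IRF9 into ISGF3, a transcription factor complex that binds the interferon-stimulated response element (ISRE) in promoters. Its targets include sensors of viral RNA, enzymes that degrade or hold back viral RNA, the ubiquitin-like protein ISG15 and the factors STAT2, IRF9 and IRF7 themselves, so that the pathway feeds its own components. In tumour cells, a raised level of these genes is known with and without added interferon.

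The promoters show what the genes share in sequence, and the stretches below are those of a pair of near-identical IFIT copies, a pair of near-identical OAS1 copies, Oas3, which had among the largest differences between lines, and Oasl1. Oasl1 was chosen after its values were seen, because its pattern was opposite to that of Oas3. Each stretch is the 200 bases before a start of transcription in RefSeq (GRCm38.p6), written in the direction of transcription. Except for Oas1g, the start used lies inside the listed bounds of the gene. The stretches of Ifit3 and Ifit3b fall wholly within those bounds, and those of Oas3, Oas1a and Oasl1 in part. Capitals mark the core of the ISRE, searched on both strands as GAAA followed by 2 bases of any kind and a second GAAA, with overlapping matches allowed. On the opposite strand the core reads TTTC, 2 bases of any kind and TTTC.
Ifit3, chr19:34583329-34583528, plus strand: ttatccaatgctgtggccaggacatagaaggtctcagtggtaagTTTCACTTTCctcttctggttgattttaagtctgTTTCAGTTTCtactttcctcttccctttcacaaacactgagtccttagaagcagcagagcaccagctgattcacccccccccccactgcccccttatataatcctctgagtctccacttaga
Ifit3b, chr19:34607757-34607956, plus strand: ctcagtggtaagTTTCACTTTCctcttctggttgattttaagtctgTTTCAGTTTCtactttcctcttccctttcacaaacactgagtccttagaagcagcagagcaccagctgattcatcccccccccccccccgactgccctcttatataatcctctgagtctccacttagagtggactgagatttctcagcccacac
Oas3, chr5:120777660-120777859, minus strand: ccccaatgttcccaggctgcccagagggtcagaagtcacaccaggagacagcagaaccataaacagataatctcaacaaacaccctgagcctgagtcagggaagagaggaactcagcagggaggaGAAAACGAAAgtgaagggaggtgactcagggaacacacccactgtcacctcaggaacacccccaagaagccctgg
Oas1a, chr5:120907526-120907725, minus strand: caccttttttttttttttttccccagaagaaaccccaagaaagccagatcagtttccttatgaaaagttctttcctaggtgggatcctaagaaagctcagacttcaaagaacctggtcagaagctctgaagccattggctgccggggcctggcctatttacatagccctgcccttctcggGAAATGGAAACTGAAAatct
Oas1g, chr5:120887614-120887813, minus strand: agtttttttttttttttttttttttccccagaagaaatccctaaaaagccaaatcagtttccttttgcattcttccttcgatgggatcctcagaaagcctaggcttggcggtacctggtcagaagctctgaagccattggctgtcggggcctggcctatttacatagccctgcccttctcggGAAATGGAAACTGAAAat
Oasl1, chr5:114923040-114923239, plus strand: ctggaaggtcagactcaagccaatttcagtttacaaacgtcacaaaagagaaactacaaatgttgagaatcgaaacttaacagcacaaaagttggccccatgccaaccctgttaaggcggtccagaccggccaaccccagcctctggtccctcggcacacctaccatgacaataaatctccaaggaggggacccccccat
The Ifit3 and Ifit3b stretches share an identical run of 119 bases that holds both core matches. Those of Oas1a and Oas1g share a run of 56 bases that holds 2 overlapping core matches next to the start. Oas3 has 1 match and Oasl1 none. RefSeq windows of 250 bases before to 50 bases after the start were available for 31 of the 43 genes. In 18 of these 31 genes (58.1%) the window held the ISRE core, against 3.99% of all 27025 genes with a window. The GAS motif TTCNNNGAA (N is any base), an element of the interferon gamma response, was in 8 of the 31 (25.8%), against 9.55% of all genes. A match is a description of the sequence, and Irf7, Ifi44, Ifit2, Irf9 and Irf1 are among the members with no core match in this window. Oasl2, the neighbour of Oasl1, also had no core match there, and its highest line mean was in 66cl4. The remaining 12 genes, which include Oas2, Usp18, Mx1, Mx2, Zbp1 and Ccl5, had no window.

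Most of the 43 genes were highest in 66cl4. An adjusted p under 0.05 for any difference among the 4 lines was reached by 41 of the 43 (edgeR's quasi-likelihood F-test, with p-values adjusted over every gene tested by the Benjamini-Hochberg method), against 84.8% of all genes, so this count is only a little above the background. Their direction lay further from the background. In 34 of the 43 genes the level in 66cl4 was higher than in each of the other 3 lines, each with an adjusted p under 0.05 by the same test in edgeR, against 12.1% of all genes. Both 66cl4 libraries lay above all 6 other libraries in 36 of the 43 genes, against 20.3% of all genes. The line mean was highest in 66cl4 in 37 of the 43 genes, and it was lowest in 67NR in 25 and in 4T1 in 14. Over all 13928 genes tested, these numbers were 3926, 3622 and 3468 in the same order. The commonest order of line means, found in 18 genes, was 66cl4, 4T1.2, 4T1 and 67NR from high to low. This order ranks the means without a test, and its share over all genes was not counted. Stat2, Oas1a and Oas1g have it, though their other 3 lines did not differ from each other at the threshold. With any 1 library left out, the 34 genes became 33 to 34.

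**Figure D1:**
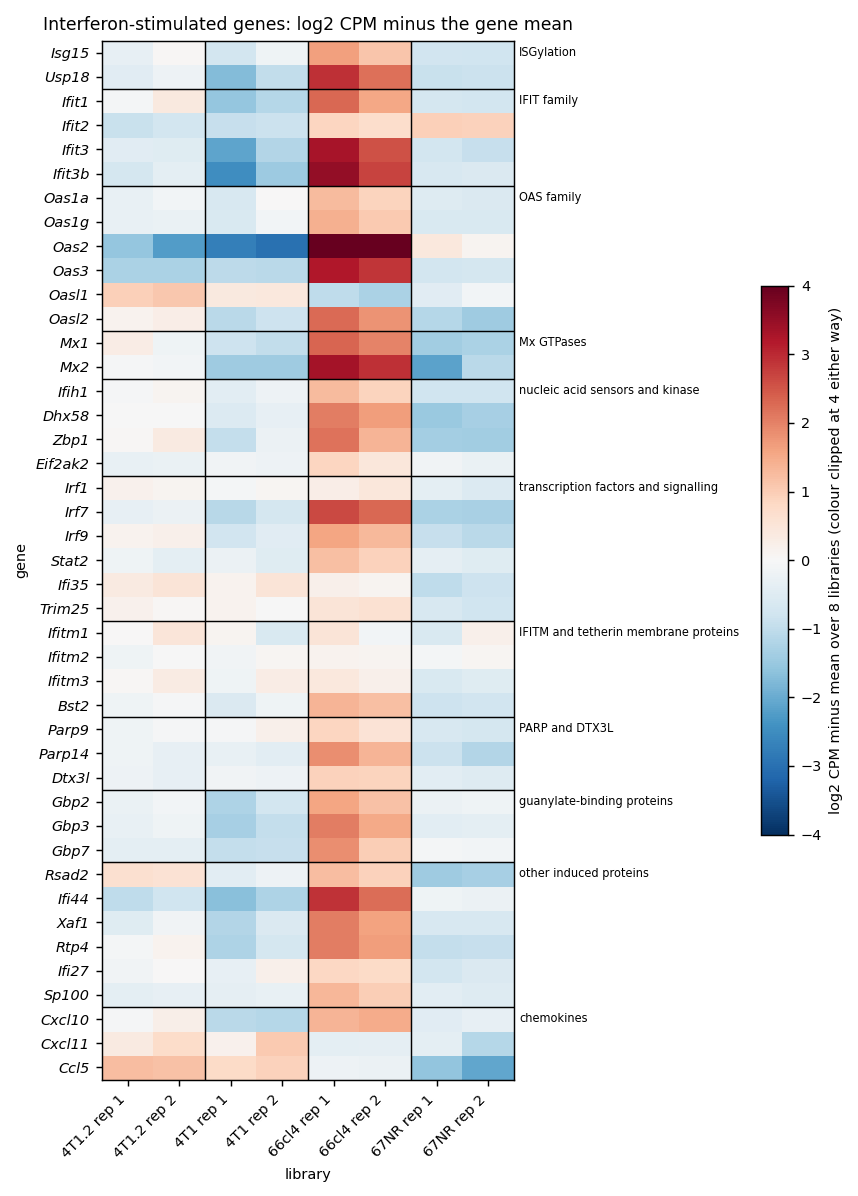
Each row is an interferon-stimulated gene and each column a library, and the colour gives the gene's log2 CPM (counts-per-million) minus its mean over the 8 libraries, with rows grouped by role. Red fills the 66cl4 columns in most rows, while Oasl1 is blue there and Cxcl11 and Ccl5 are pale there, slightly below their means. Ccl5 is blue in 67NR, Ifit2 is red in 67NR as well, and Ifitm2 is pale in all columns.

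CPM in the following are counts-per-million values scaled by TMM, a scaling that takes the bulk of genes as unchanged between libraries, and the values of replicate 1 and replicate 2 are given in that order. Fold changes are on the log2 scale with their standard error, and their adjusted p-values come from the same test in edgeR. The p-values measure only the spread between these cultures.

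Between 66cl4 and 67NR, the lines of lower metastatic potential, 38 genes were higher in 66cl4 (88.4%, against 22.2% of all genes) and 1 was higher in 67NR (against 22.4%). Against 4T1, 36 were higher in 66cl4 and 2 were higher in 4T1, against 35.2% and 34.9% of all genes, and without replicate 1 of 4T1 the 2 became 4. Against 4T1.2, 35 were higher in 66cl4 and 2 in 4T1.2, against 34.5% and 34.3%. The median log2 fold change of the 43 genes was 1.89 for 66cl4 over 67NR, -1.53 for 4T1.2 over 66cl4 and -1.82 for 4T1 over 66cl4, and over all genes tested these medians lay between -0.01 and 0. A difference of more than 2-fold with an adjusted p under 0.05 (edgeR) was found in 35 genes for 66cl4 over 67NR, in 31 over 4T1 and in 30 over 4T1.2, against 7.91%, 17.5% and 17.4% of all genes. Of more than 8-fold, there were 11, 10 and 6 genes in this order, against 1.88%, 6.5% and 6.58% of all genes. The 3 comparisons share the 66cl4 libraries and are not independent of each other.

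The medians between the other 3 lines were smaller. Between 4T1.2 and 67NR, 24 genes were higher in 4T1.2 and 4 in 67NR, against 33.7% and 34.1% of all genes, with a median log2 fold change of 0.60. Between 4T1 and 67NR, 16 were higher in 4T1 and 9 in 67NR, against 33.9% and 34.4%, with a median of 0.28, and without replicate 2 of 67NR the 16 became 10. These shares of 37.2% and 20.9% are close to or below those of all genes. Between the closely related 4T1.2 and 4T1, 15 genes were higher in 4T1.2 and 0 in 4T1, against 9.37% and 9.92% of all genes, with a median of 0.41. The count was 8 without replicate 1 of 4T1.2 and 6 without its replicate 2, and the number of all genes called between these lines fell as well, from 2687 to 1373 and 1427.

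**Figure D2:**
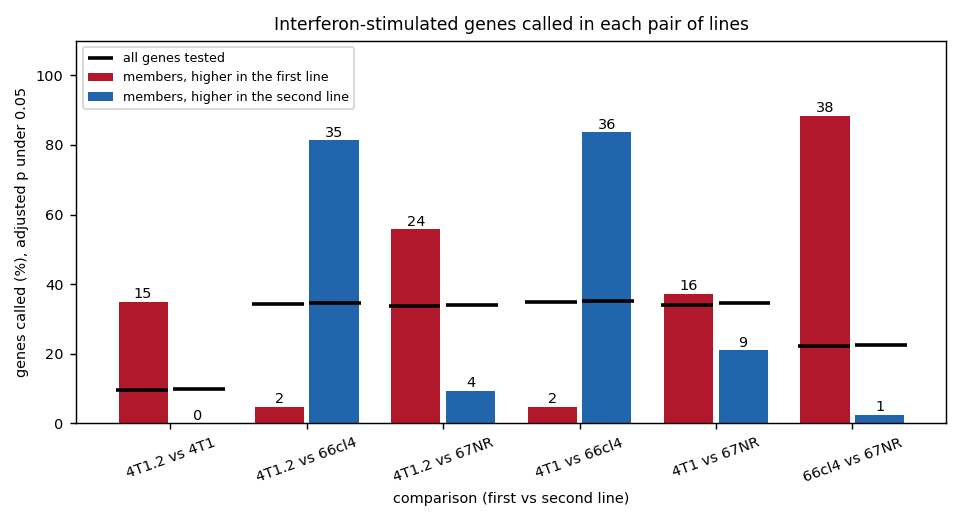
For each pair of lines, bars give the percentage of the 43 interferon-stimulated genes with an adjusted p under 0.05 and a higher level in the first (red) or second (blue) line, with the number of genes above each bar, and black lines give the same percentage over all 13928 genes tested. The bars for 66cl4 stand far above the lines, with 35, 36 and 38 genes, and the opposite bars hold 2, 2 and 1.

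When the study's own grouping was followed, averaging over 4T1 and 4T1.2 and over 66cl4 and 67NR, 30 of the 43 genes were lower in 4T1/4T1.2 and 5 were higher, against 38.6% and 38.1% of all genes, with a median log2 fold change of -0.61. This mean joins 2 lines that differ from each other in 39 of the 43 genes, 38 of them higher in 66cl4, so the line by line values are given below.

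The ISG15 system showed the pattern at high level. Isg15 encodes a ubiquitin-like protein that is attached to other proteins and is also secreted. Isg15 had 162 and 114 CPM in 66cl4, 30.8 and 30.4 in 67NR, 41.4 and 54.1 in 4T1.2 and 31.4 and 46.6 in 4T1. The 66cl4 libraries lay above all others, and the log2 fold change of 66cl4 over 67NR was 2.17 (standard error 0.22, adjusted p = 4.36e-05). Usp18 encodes the protease that removes ISG15 and also holds back signalling at IFNAR2. Usp18 had 44.1 and 27 CPM in 66cl4, 3.13 and 3.19 in 67NR, 4.24 and 5.04 in 4T1.2 and 1.72 and 2.93 in 4T1. It was 3.96 (standard error 0.29, adjusted p = 1.12e-06) higher in 66cl4 than in 4T1 on the log2 scale, and its lower 66cl4 library was 5.36-fold above the highest library of any other line.

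The IFIT proteins bind viral RNA and lie side by side on chromosome 19. Of the 4, Ifit1, Ifit3 and Ifit3b were highest in 66cl4 and Ifit2 was not. Ifit3 had 2032 and 1218 counts in 66cl4, 101 and 148 in 67NR, 191 and 185 in 4T1.2 and 63 and 93 in 4T1. Ifit3 had 44.8 and 27.2 CPM in 66cl4, 2.75 and 2.4 in 67NR, 3.36 and 3.26 in 4T1.2 and 1.03 and 2 in 4T1. The libraries of 66cl4 did not overlap any other, with 3.82 (standard error 0.30, adjusted p = 9.33e-06) for 66cl4 over 67NR. Its copy Ifit3b followed the same order. Ifit3b had 31.3 and 18 CPM in 66cl4, 1.72 and 1.81 in 67NR, 1.65 and 2.08 in 4T1.2 and 0.458 and 0.97 in 4T1. Of their 75-base stretches, 41.1% of Ifit3 and 35.7% of Ifit3b also occur in the other copy, so the split of counts between them is uncertain, while both gave the same direction. Ifit1 had 133 and 78.9 CPM in 66cl4, 16.6 and 16.3 in 67NR, 25.4 and 35.6 in 4T1.2 and 9.29 and 12.2 in 4T1. For Ifit1 the lowest line was 4T1, which lay below 4T1.2 by 1.51 (standard error 0.25, adjusted p = 0.00262) on the log2 scale. Ifit2 had 72 and 64.7 CPM in 66cl4, 77.9 and 74.9 in 67NR, 21.3 and 23.7 in 4T1.2 and 21 and 21.8 in 4T1. Ifit2 thus separated 4T1 and 4T1.2 from the other lines, with 1.84 (standard error 0.10, adjusted p = 1.33e-07) for 67NR over 4T1, and 67NR did not pass the threshold over 66cl4 (log2 0.16, standard error 0.10, adjusted p = 0.205). None of its 75-base stretches occurs in another gene.

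The oligoadenylate synthetases sense viral RNA and make the messenger that activates RNase L. The 6 members held both the largest difference of all 43 genes and its opposite. Oas2 (chromosome 5, 120730333 to 120749886, GRCm38) had the largest range of line means, 7.32 on the log2 scale. Oas2 had 2587 and 1533 counts in 66cl4, 98 and 131 in 67NR, 37 and 22 in 4T1.2 and 16 and 10 in 4T1. Oas2 had 57.1 and 34.2 CPM in 66cl4, 2.67 and 2.12 in 67NR, 0.651 and 0.388 in 4T1.2 and 0.262 and 0.215 in 4T1. Every 66cl4 library was above every other, 67NR came next, and 4T1 and 4T1.2 were at the bottom. The log2 fold change of 66cl4 was 7.55 (standard error 0.36, adjusted p = 4.57e-08) over 4T1 and 4.27 (standard error 0.27, adjusted p = 2.72e-06) over 67NR. Oas3 had 74.2 and 58.5 CPM in 66cl4, 4.85 and 4.94 in 67NR, 3.36 and 3.35 in 4T1.2 and 3.91 and 3.77 in 4T1. Oas3 lay in a band of 3.35 to 4.94 CPM in the 6 libraries outside 66cl4, and its log2 fold change of 66cl4 over 4T1.2 was 4.31 (standard error 0.14, adjusted p = 4.28e-09).
Oas1a had 54.2 and 42.1 CPM in 66cl4, 15.7 and 15.1 in 67NR, 18.2 and 20.9 in 4T1.2 and 14.3 and 22.8 in 4T1. Oas1g had 30.8 and 23.3 CPM in 66cl4, 7.39 and 7.51 in 67NR, 9.29 and 9.55 in 4T1.2 and 7.46 and 10.7 in 4T1. The other 3 lines did not differ from each other at the threshold in either of these genes, and 47.6% of the 75-base stretches of Oas1a and 36.9% of those of Oas1g are shared between the copies. Oasl2 had 136 and 98.6 CPM in 66cl4, 12.9 and 10.7 in 67NR, 31.3 and 33.8 in 4T1.2 and 13.4 and 15.9 in 4T1. Oasl2 lies next to Oasl1 on chromosome 5 (Oasl2 from 114896926 to 114912245, Oasl1 from 114923143 to 114937911), and the neighbours went opposite ways. Oasl1 had 173 and 144 counts in 66cl4, 211 and 445 in 67NR, 860 and 937 in 4T1.2 and 633 and 484 in 4T1. Oasl1 had 3.82 and 3.21 CPM in 66cl4, 5.75 and 7.2 in 67NR, 15.1 and 16.5 in 4T1.2 and 10.4 and 10.4 in 4T1. Oasl1, which encodes a protein without synthetase activity, was lowest in 66cl4. Its level in 4T1.2 was higher by 2.17 (standard error 0.15, adjusted p = 9.78e-07) on the log2 scale, and it was the 1 gene of the 43 that was higher in 67NR than in 66cl4 (log2 0.89, standard error 0.16, adjusted p = 0.00136). The libraries of 66cl4 did not overlap those of another line for Oasl1.

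The Mx proteins are dynamin-like GTPases that block the entry and replication of viruses. Both genes are listed as transcribed pseudogenes in the reference annotation, which was not checked for these lines, and their levels were low. Mx2 had 633 and 463 counts in 66cl4, 10 and 38 in 67NR, 73 and 70 in 4T1.2 and 29 and 22 in 4T1. Mx2 had 14 and 10.3 CPM in 66cl4, 0.273 and 0.615 in 67NR, 1.28 and 1.23 in 4T1.2 and 0.474 and 0.474 in 4T1. Mx1 had 151 and 117 counts in 66cl4, 8 and 15 in 67NR, 45 and 32 in 4T1.2 and 21 and 14 in 4T1. Mx1 was at 3.33 and 2.61 CPM in 66cl4 and at most 0.792 CPM elsewhere. In both genes 66cl4 stood above all other libraries and 4T1.2 came next, with log2 fold changes of 4T1.2 over 4T1 of 1.40 (standard error 0.32, adjusted p = 0.0138) for Mx2 and 1.06 (standard error 0.31, adjusted p = 0.0411) for Mx1.

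**Figure D3:**
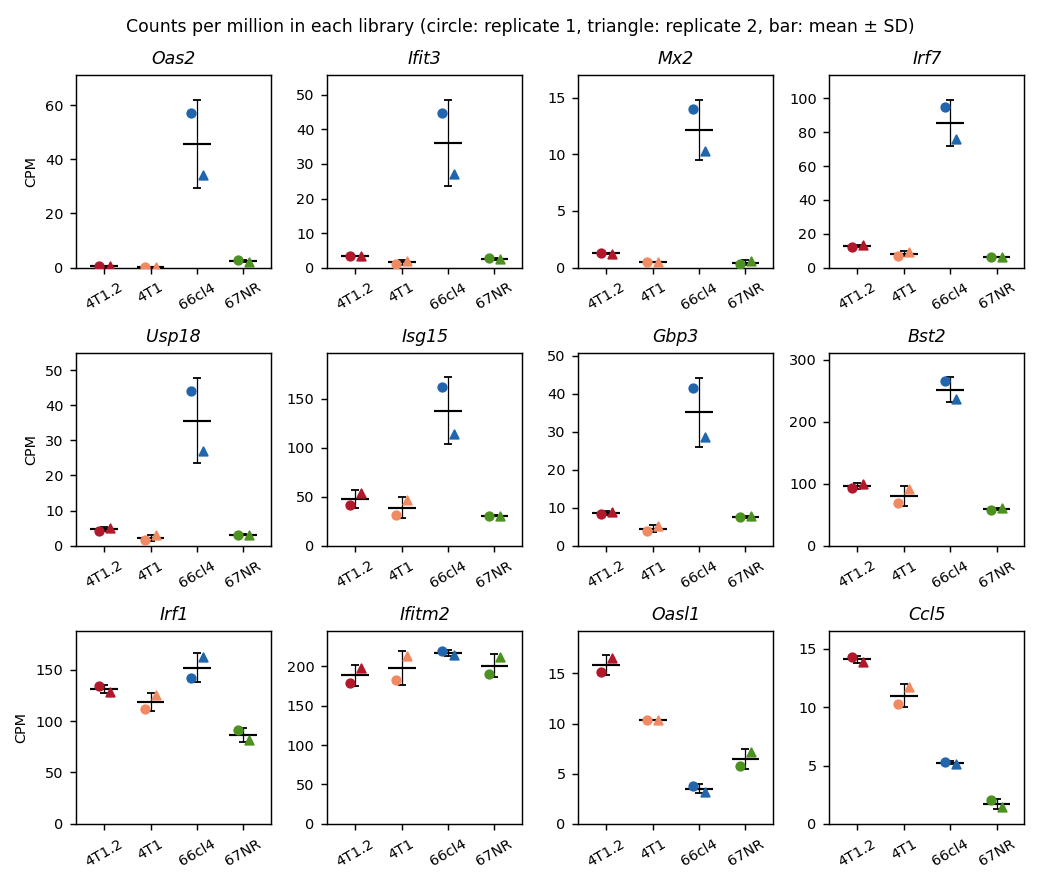
Each panel shows the CPM of a gene in every library, with a circle for replicate 1, a triangle for replicate 2 and bars for the mean ± SD of the 2 replicates, on axes that start at 0. The 66cl4 points stand alone in the panels of Oas2 to Bst2, overlap or nearly touch those of other lines for Irf1 and Ifitm2, and are below those of 4T1.2 and 4T1 for Oasl1 and Ccl5.

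Of the sensors of foreign nucleic acid, Ifih1 (MDA5) binds long RNA duplexes, Dhx58 (LGP2) modulates it, Zbp1 senses nucleic acid in the Z form and can trigger necroptosis, and Eif2ak2 (PKR) is a kinase that stops translation. All 4 were higher in 66cl4 than in each other line. Dhx58 had 56.1 and 43.3 CPM in 66cl4, 4.82 and 5.39 in 67NR, 13.3 and 13.3 in 4T1.2 and 9.28 and 10.8 in 4T1. Ifih1 had 62.3 and 47.9 CPM in 66cl4, 14.8 and 14.9 in 67NR, 25.4 and 28 in 4T1.2 and 19.6 and 22.7 in 4T1. In both genes 67NR was the lowest line, below 4T1 by 0.97 (standard error 0.15, adjusted p = 0.000335) on the log2 scale for Dhx58 and by 0.51 (standard error 0.14, adjusted p = 0.00896) for Ifih1. Zbp1 had 19.7 and 11.2 CPM in 66cl4, 1.69 and 1.65 in 67NR, 4.52 and 5.66 in 4T1.2 and 2.22 and 3.68 in 4T1. The 66cl4 libraries of Zbp1 differed from each other by 0.81 on the log2 scale and still lay above all others. Eif2ak2 had 146 and 110 CPM in 66cl4, 72.3 and 66.9 in 67NR, 65.5 and 66 in 4T1.2 and 73.4 and 69.2 in 4T1. Eif2ak2 had among the smallest differences of the genes that were highest in 66cl4, with 0.88 (standard error 0.13, adjusted p = 0.000437) over 67NR, and the other 3 lines did not differ from each other at the threshold.

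Among the transcription factors, Irf7, Irf9 and Stat2 were all higher in 66cl4 than in each other line. STAT2 and IRF9 are subunits of ISGF3, and IRF7 is the factor that amplifies interferon gene transcription. Irf7 had 95.1 and 75.8 CPM in 66cl4, 6.32 and 6.14 in 67NR, 12.2 and 13.1 in 4T1.2 and 7.08 and 9.42 in 4T1. Irf7 (chromosome 7, 141263183 to 141266499) had the widest range of this group, with 3.78 (standard error 0.17, adjusted p = 2.92e-07) for 66cl4 over 67NR. Irf9 had 110 and 91.6 CPM in 66cl4, 19.4 and 17.4 in 67NR, 41.1 and 43.1 in 4T1.2 and 21.6 and 27.3 in 4T1. Irf9 was also higher in 4T1.2 than in 4T1, by 0.79 (standard error 0.13, adjusted p = 0.00314) on the log2 scale. Stat2 had 56.6 and 46.1 CPM in 66cl4, 19.2 and 17.4 in 67NR, 21.7 and 18.8 in 4T1.2 and 20.9 and 17.4 in 4T1. The level of Stat2 in 4T1.2, 4T1 and 67NR did not differ at the threshold in any pair. Irf1 encodes a factor that is induced by interferon gamma and binds similar elements. Irf1 had 142 and 162 CPM in 66cl4, 90.9 and 81.2 in 67NR, 134 and 128 in 4T1.2 and 112 and 125 in 4T1. Here 66cl4 was higher than 4T1 by 0.36 (standard error 0.10, adjusted p = 0.0108) and not past the threshold against 4T1.2 (log2 0.21, standard error 0.10, adjusted p = 0.0904), and 67NR was lowest. Ifi35 encodes an interferon-induced protein that is also released from cells. Ifi35 had 45.2 and 41.8 CPM in 66cl4, 19.5 and 21.8 in 67NR, 50.5 and 55.5 in 4T1.2 and 43.4 and 55.9 in 4T1. The 4T1 libraries overlapped those of 4T1.2 and 66cl4, no pair of these lines passed the threshold, and 67NR was lower than each. Ifi35 shares 7.42% of its 75-base stretches with another gene. Trim25 encodes the ubiquitin ligase that acts on the sensor RIG-I. Trim25 had 178 and 191 CPM in 66cl4, 80 and 71.4 in 67NR, 139 and 127 in 4T1.2 and 137 and 124 in 4T1. Trim25 was higher in 66cl4 than in 4T1 by only 0.50 (standard error 0.10, adjusted p = 0.0012), although 67NR lay below all other lines.

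The IFITM proteins, which sit in membranes and restrict the entry of viruses, did not share the pattern. Ifitm3 had 420 and 359 CPM in 66cl4, 204 and 225 in 67NR, 321 and 394 in 4T1.2 and 279 and 388 in 4T1. Ifitm2 had 219 and 214 CPM in 66cl4, 190 and 211 in 67NR, 179 and 198 in 4T1.2 and 182 and 213 in 4T1. These were the genes with the highest levels per length of the 43, at 601 RPKM for Ifitm3 and 345 RPKM for Ifitm2 in 66cl4 (CPM per kilobase of gene length). Ifitm3 was higher in 66cl4 than in 67NR (log2 0.86, standard error 0.16, adjusted p = 0.00201) and not past the threshold over 4T1 (log2 0.23, standard error 0.16, adjusted p = 0.234). For Ifitm2 there was no difference at the threshold among the lines (adjusted p = 0.339, edgeR), and 42.0% of its 75-base stretches occur in another gene. Ifitm1, with 7 to 26 counts in each library, also did not pass (adjusted p = 0.657, edgeR). The tethering protein BST2, which holds budding virus at the cell surface, did follow the pattern. Bst2 had 266 and 237 CPM in 66cl4, 57.8 and 60.9 in 67NR, 92.4 and 99.1 in 4T1.2 and 68.7 and 91 in 4T1. Bst2 was higher in 66cl4 than in 67NR by 2.08 (standard error 0.13, adjusted p = 2.9e-06) on the log2 scale, with 67NR again lowest.

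Parp9 and Dtx3l form a complex with ubiquitin ligase activity, and Parp14 is a related ADP-ribosyltransferase. These genes lie close together on chromosome 16. Parp14 had 107 and 75.8 CPM in 66cl4, 16.2 and 13.1 in 67NR, 26.4 and 23.4 in 4T1.2 and 24 and 21.9 in 4T1. Parp9 had 113 and 91.3 CPM in 66cl4, 39.7 and 37.8 in 67NR, 55.1 and 60 in 4T1.2 and 60.3 and 72.2 in 4T1. Dtx3l had 63.1 and 61.5 CPM in 66cl4, 25.2 and 23.2 in 67NR, 29.3 and 26.8 in 4T1.2 and 30.6 and 28.9 in 4T1. The lowest line was 67NR for each and the highest 66cl4, with a log2 fold change of 66cl4 over 67NR of 2.64 (standard error 0.18, adjusted p = 3.42e-06) for Parp14. That of Parp9 was 1.40 (standard error 0.13, adjusted p = 2.36e-05) and that of Dtx3l 1.36 (standard error 0.10, adjusted p = 5.05e-06). The neighbours Parp9 and Dtx3l share sequence, at 6.63% and 6.72% of their stretches.

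Guanylate-binding proteins are GTPases that attack the compartments of intracellular pathogens and respond strongly to interferon gamma. In these genes 4T1 and not 67NR was the lowest line. Gbp2 had 58.9 and 44.3 CPM in 66cl4, 16.6 and 17.4 in 67NR, 16.3 and 18.2 in 4T1.2 and 8.34 and 11.8 in 4T1. Gbp3 had 41.5 and 28.7 CPM in 66cl4, 7.44 and 7.71 in 67NR, 8.23 and 8.92 in 4T1.2 and 3.93 and 5.13 in 4T1. Gbp7 had 40.6 and 22.4 CPM in 66cl4, 10.7 and 10.4 in 67NR, 8.67 and 8.62 in 4T1.2 and 5.77 and 5.95 in 4T1. Each was higher in 67NR than in 4T1, with log2 fold changes of 0.76 (standard error 0.18, adjusted p = 0.00407), 0.75 (standard error 0.20, adjusted p = 0.0071) and 0.85 (standard error 0.24, adjusted p = 0.00957) in this order, and none differed between 4T1.2 and 67NR at the threshold. Of the stretches of Gbp7, 11.3% are shared with another gene. The largest difference of 66cl4 was that of Gbp3 over 4T1 (log2 2.96, standard error 0.20, adjusted p = 5.83e-07).

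Of the other induced proteins, Ifi44 had the largest difference. Ifi44 had 84.2 and 52.7 CPM in 66cl4, 9.92 and 9.52 in 67NR, 5.59 and 6.52 in 4T1.2 and 3.53 and 4.74 in 4T1. Ifi44 was higher in 66cl4 than in 4T1 by 4.06 (standard error 0.24, adjusted p = 2.22e-07), and it was also higher in 67NR than in 4T1 (log2 1.24, standard error 0.23, adjusted p = 0.000941). Xaf1 had 74.5 and 54.7 CPM in 66cl4, 11.4 and 11.5 in 67NR, 12.9 and 16.3 in 4T1.2 and 8.02 and 12 in 4T1. Rtp4 had 105 and 82 CPM in 66cl4, 13.2 and 13.5 in 67NR, 24.3 and 28.3 in 4T1.2 and 10.9 and 15.6 in 4T1. Xaf1 encodes a pro-apoptotic factor and Rtp4 a receptor-transporting protein with antiviral activity, and the lower 66cl4 library of each was 3.35-fold and 2.90-fold above the highest library elsewhere. Sp100 encodes a component of nuclear bodies. Sp100 had 81.3 and 64.2 CPM in 66cl4, 23.9 and 22.7 in 67NR, 24.4 and 25.9 in 4T1.2 and 24.9 and 26.5 in 4T1. The 6 libraries outside 66cl4 lay within 22.7 to 26.5 CPM for Sp100, so 66cl4 was the line that stood apart. Ifi27 had 269 and 255 CPM in 66cl4, 90.2 and 100 in 67NR, 137 and 152 in 4T1.2 and 121 and 174 in 4T1. Rsad2 had 27.6 and 22.6 CPM in 66cl4, 4.39 and 4.73 in 67NR, 18.5 and 17.7 in 4T1.2 and 8.8 and 10.3 in 4T1. Rsad2 encodes viperin, which makes a chain-terminating nucleotide. For Rsad2, 66cl4 was nearest to 4T1.2 (log2 0.48, standard error 0.13, adjusted p = 0.00857) and 67NR was lower than 4T1.2 by 1.98 (standard error 0.14, adjusted p = 1.07e-06).

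The 3 chemokines split. Cxcl10 and Cxcl11 attract T cells through CXCR3, and Ccl5 attracts T cells and monocytes. Cxcl10 had 14.8 and 16.3 CPM in 66cl4, 4.17 and 4.58 in 67NR, 5.54 and 6.71 in 4T1.2 and 2.68 and 2.56 in 4T1. Cxcl10 followed the other genes, with 1.82 (standard error 0.14, adjusted p = 1.02e-05) for 66cl4 over 67NR and 4T1 at the bottom. Ccl5 had 5.34 and 5.15 CPM in 66cl4, 2.02 and 1.41 in 67NR, 14.3 and 13.9 in 4T1.2 and 10.3 and 11.7 in 4T1. Ccl5 ran from 4T1.2 down through 4T1 and 66cl4 to 67NR with no overlap between lines. The step from 4T1 to 4T1.2 did not pass the threshold (log2 0.36, standard error 0.15, adjusted p = 0.123), and 4T1.2 was higher than 66cl4 by 1.43 (standard error 0.16, adjusted p = 2.24e-05). Still, 66cl4 was higher than 67NR for Ccl5 (log2 1.65, standard error 0.18, adjusted p = 7.19e-05). Cxcl11 had 5 and 5 counts in 66cl4, 4 and 3 in 67NR, 12 and 16 in 4T1.2 and 11 and 17 in 4T1. Cxcl11 was higher in 4T1.2 and 4T1 than in 67NR, by 1.75 (standard error 0.60, adjusted p = 0.025) and 1.84 (standard error 0.59, adjusted p = 0.0194) on the log2 scale, and in the mean of 4T1/4T1.2 over that of 66cl4/67NR by 1.49 (standard error 0.41, adjusted p = 0.00719). Against 66cl4 neither line passed the threshold for Cxcl11 (log2 1.14, adjusted p = 0.0924 for 4T1.2, and log2 1.23, adjusted p = 0.0698 for 4T1), nor did 66cl4 over 67NR (log2 0.61, standard error 0.73, adjusted p = 0.527). The reads of Cxcl11 are few, 39.8% of its stretches occur in another gene and the reference annotation lists it as a transcribed pseudogene. The study describes 4T1.2 as derived from BALB/c mice, and whether that listing holds in these lines was not tested.

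The replicates of 66cl4 differed in the same way across the list. Replicate 1 was above replicate 2 in 39 of the 43 genes, with a median log2 difference of 0.36, while over all genes tested replicate 1 was the higher in 44.9% with a median of -0.01. The largest of these differences were 0.86 for Gbp7, 0.81 for Zbp1, 0.80 for Ifit3b and 0.75 for Ifit1, and the exceptions were Irf1, Cxcl10, Trim25 and Cxcl11, at -0.19, -0.14, -0.10 and -0.01. In 4T1 the median ran to -0.25, with replicate 1 the higher in 11 genes, and in 4T1.2 it was -0.11. In 67NR it was 0.02, with replicate 1 the higher in 22 genes. A further list of 54 interferon-induced genes moved the same way between the 66cl4 cultures, with 52 of 54 higher in replicate 1 and a median of 0.28. Summed over the 43 genes, 0.351% and 0.302% of the counts of the 66cl4 libraries fell on them, against 0.122% to 0.160% in the other 6 libraries. The spread between cultures was therefore shared by the genes, and they are not independent of each other within a line. Its cause was not tested.

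**Figure D4:**
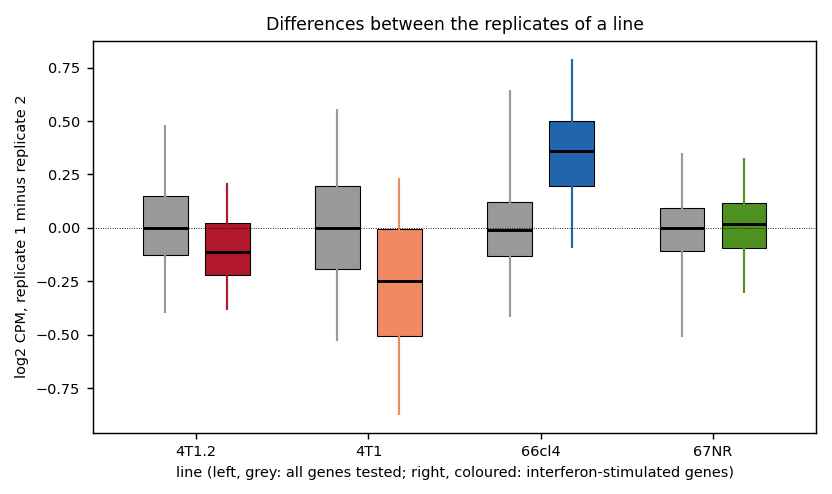
The difference in log2 CPM between replicate 1 and replicate 2 is shown for each line, with grey boxes for all 13928 genes tested on the left and coloured boxes for the 43 interferon-stimulated genes on the right (box: quartiles, thick line: median, thin line: 5th to 95th percentile). The box of 66cl4 lies above 0, with a median of 0.36, that of 4T1 below 0, with a median of -0.25, and that of 67NR at 0.02.

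The ligands themselves were almost unread. Of 21 interferon genes, 12 had no count in any library, which allows up to 3 counts in each, and 19 had at most 3 counts in every library. The 1 ligand tested was Ifnz, a type I interferon gene, with 31 and 52 counts in 66cl4, 15 and 47 in 67NR, 31 and 33 in 4T1.2 and 14 and 15 in 4T1. Its highest line was 66cl4, and it passed the test across lines at an adjusted p of 0.0162 (edgeR), but not without replicate 1 of 4T1 or without replicate 2 of 66cl4. Between pairs of lines, Ifnz was higher in 66cl4 and in 67NR than in 4T1 (adjusted p = 0.00329 and 0.0328, edgeR). For 66cl4 it did not pass the threshold over 4T1.2 or over 67NR (adjusted p = 0.103 and 0.218, edgeR). Ifnb1, which encodes interferon beta, had 8 and 8 counts in 66cl4, 6 and 6 in 67NR, 1 and 1 in 4T1.2 and 1 and 0 in 4T1. It was too low for the filter and was not tested, and without that filter its adjusted p across the lines was 0.00755 (edgeR). So few reads do not bear a fold change.

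On the receptor and kinase side, the type I route was read in all lines and had its highest line means in 66cl4. Ifnar1 had 114 and 116 CPM in 66cl4, 81 and 78 in 67NR, 76.9 and 71.3 in 4T1.2 and 55.3 and 55.9 in 4T1. Ifnar2 had 52.1 and 49.7 CPM in 66cl4, 43 and 44.9 in 67NR, 19.2 and 19.2 in 4T1.2 and 15 and 17 in 4T1. Both receptor chains were highest in 66cl4, Ifnar1 above 67NR by 0.53 (standard error 0.08, adjusted p = 0.000645) on the log2 scale and Ifnar2 without passing the threshold (log2 0.21, standard error 0.10, adjusted p = 0.103). For Ifnar2, the 4T1 and 4T1.2 libraries lay far below those of the other lines, with 1.46 (standard error 0.10, adjusted p = 7.27e-07) for 67NR over 4T1. Jak1 had 337 and 339 CPM in 66cl4, 216 and 213 in 67NR, 173 and 175 in 4T1.2 and 218 and 208 in 4T1. Tyk2 had 45.4 and 46.8 CPM in 66cl4, 37.3 and 35.4 in 67NR, 21.1 and 19.6 in 4T1.2 and 25.2 and 20.7 in 4T1. The kinases that dock on these chains were also highest in 66cl4, with 0.65 (standard error 0.08, adjusted p = 0.000122) for Jak1 and 0.34 (standard error 0.11, adjusted p = 0.03) for Tyk2 over 67NR.
Of the 19 tested genes of this list, 18 passed across the lines, against 84.8% of all genes. Compared with 67NR, 11 (57.9%) were higher in 66cl4 and 4 (21.1%) in 67NR, against 22.2% and 22.4% of all genes. The list also held genes with the opposite order. Jak2, the kinase of the interferon gamma receptor and of many cytokine receptors, was highest in 4T1.2. Jak2 had 197 and 205 CPM in 66cl4, 92.3 and 85.8 in 67NR, 534 and 509 in 4T1.2 and 380 and 385 in 4T1. Ptpn6 had 17.6 and 17.6 CPM in 66cl4, 20.1 and 21.8 in 67NR, 60.4 and 60.1 in 4T1.2 and 94.9 and 98.8 in 4T1. Ptpn6, the phosphatase SHP-1, was low in 66cl4 and 67NR. The feedback inhibitors Socs1 and Socs3 were high in the lines of lower metastatic potential. Socs1 had 31 and 30.7 CPM in 66cl4, 37.7 and 43.3 in 67NR, 12.6 and 13.2 in 4T1.2 and 12 and 11.3 in 4T1. Socs3 had 189 and 191 CPM in 66cl4, 117 and 107 in 67NR, 39.8 and 41.3 in 4T1.2 and 27.7 and 25.9 in 4T1. Of these, Socs1 was highest in 67NR and Socs3 in 66cl4.

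**Figure D5:**
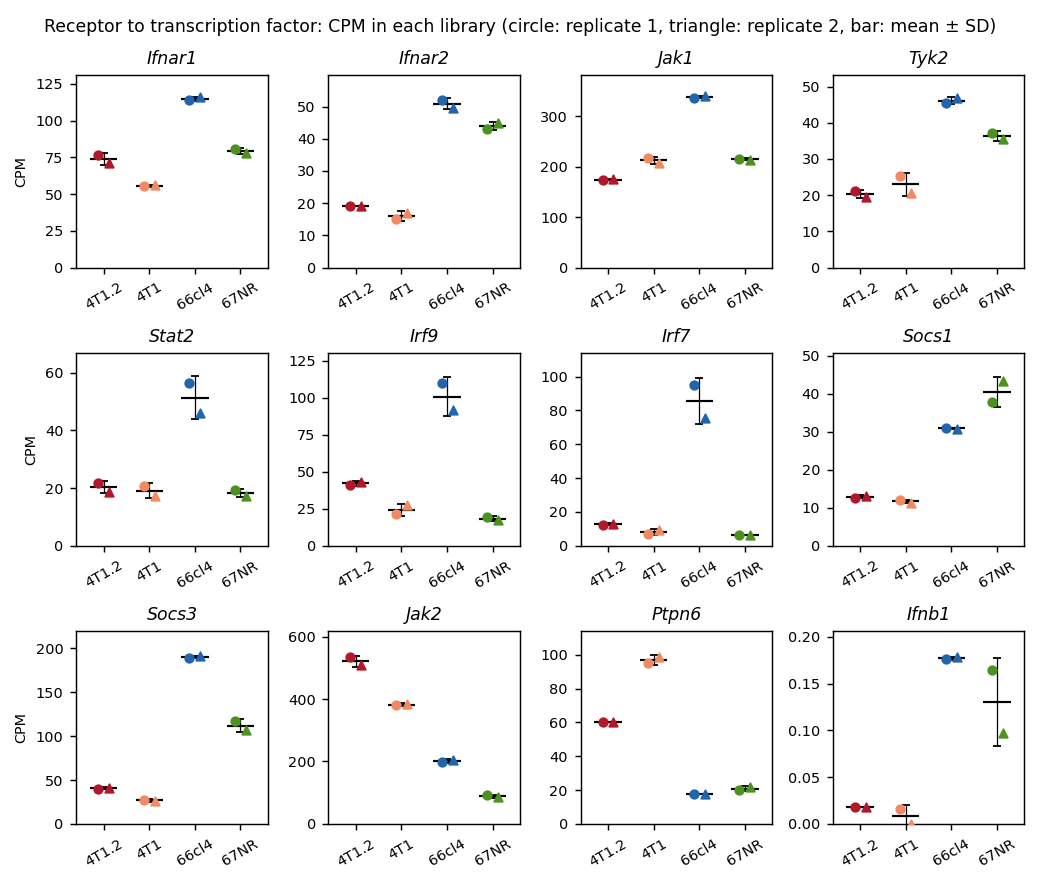
Each panel shows the CPM of a receptor, kinase, transcription factor, inhibitor or ligand gene in every library, with a circle for replicate 1, a triangle for replicate 2 and bars for the mean ± SD of the 2 replicates, on axes that start at 0. The 66cl4 points are the highest for Ifnar1, Ifnar2, Jak1, Tyk2, Stat2, Irf9 and Irf7, while Jak2 and Ptpn6 are higher in 4T1 and 4T1.2, and Ifnb1 is at or below 0.178 CPM.

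Of 26 tested genes of nucleic acid sensing outside the 43, 24 passed across the lines, against 84.8% of all genes. Compared with 67NR, 11 (42.3%) were higher in 66cl4 and 3 (11.5%) in 67NR, against 22.2% and 22.4% of all genes. Between 4T1 and 66cl4 there were 9 in each direction (34.6%), close to the 34.9% and 35.2% of all genes. Aim2, a sensor of cytosolic DNA, was highest in 67NR. Aim2 had 0.176 and 0.134 CPM in 66cl4, 54 and 55.3 in 67NR, 0.264 and 0.3 in 4T1.2 and 1.36 and 1.14 in 4T1. Irf5 had 0.0221 and 0.0892 CPM in 66cl4, 0.954 and 1.23 in 67NR, 6.46 and 6.04 in 4T1.2 and 11 and 9.52 in 4T1. Irf5 was at 1 and 4 counts in 66cl4. Irf8 had 3.73 and 4.08 CPM in 66cl4, 4.12 and 4.52 in 67NR, 15.9 and 16.2 in 4T1.2 and 40.6 and 42.8 in 4T1. Irf8 was highest in 4T1, and both factors had their lowest line mean in 66cl4, where that of Irf7 was highest. Samhd1 had 247 and 259 CPM in 66cl4, 112 and 105 in 67NR, 98.1 and 92.3 in 4T1.2 and 81.5 and 70.4 in 4T1. Samhd1, which depletes nucleotides needed by retroviruses, was also highest in 66cl4.
Of 54 further interferon-induced genes, 51 passed across the lines, against 84.8% of all genes. In 37 of the 54 the level was higher in 66cl4 than in each other line, against 12.1% of all genes. When 66cl4 was compared with 67NR, 44 (81.5%) were higher and 3 (5.56%) lower, against 22.2% and 22.4% of all genes. The 4 with the largest range were Slfn2, Epsti1, Iigp1 and Trim30a. Iigp1 had 54.1 and 28.8 CPM in 66cl4, 2.02 and 2.06 in 67NR, 3.41 and 4.74 in 4T1.2 and 0.802 and 1.23 in 4T1. Trim30a had 155 and 122 CPM in 66cl4, 61.6 and 59 in 67NR, 13.1 and 11.7 in 4T1.2 and 4.48 and 5.19 in 4T1. These were highest in 66cl4. Epsti1 was at 0.221 to 0.572 CPM in 66cl4 and 67NR and at 8.99 to 12 CPM in the lines 4T1.2 and 4T1. Slfn2, which encodes a regulator of immune cell quiescence, was at 0.900 and 0.453 CPM in 67NR, 4.66 and 3.41 in 66cl4 and 57.8 to 77.0 in the other lines. The last 2 genes thus had the opposite order.

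Markers of other cells were read beside these results. Ptprc, which marks leucocytes, had at most 2 counts in each library, and 3 of the 10 leucocyte markers were at 0 in every library. Summed over the 10, the leucocyte markers were at 19.5 to 24.0 CPM in 66cl4, against 8.44 to 28.8 CPM in the other 6 libraries, but different genes carried the sum. Lyz2, a myeloid lysozyme, had 980 and 791 counts in 66cl4 and 831 and 1387 in 67NR, against at most 4 in the other libraries. Cd74, the invariant chain of MHC class II, had 1174 and 1078 counts in 4T1, 316 and 250 in 4T1.2 and at most 18 in 66cl4 and 67NR. All 4 leucocyte markers tested passed between 4T1 and 66cl4, 3 higher in 4T1 and 1 in 66cl4, against 34.9% and 35.2% of all genes. The plasmacytoid dendritic markers summed to 677 to 749 CPM in 66cl4 and 299 to 513 elsewhere, carried by Bst2, itself a member, and Tcf4, which had 479 and 436 CPM in 66cl4 and 236 to 398 elsewhere, while the defining marker Siglech was at 0 in every library. Of the 3 tested, these 2 were higher in 66cl4 than in 4T1, and Irf8 was higher in 4T1, against 35.2% and 34.9% of all genes. Of 7 fibroblast and mesenchymal markers tested, 5 were higher in 66cl4 than in 4T1 and 1 was lower, against 35.2% and 34.9% of all genes. Compared with 4T1.2, 5 were higher in 66cl4 and 2 lower, against 34.5% and 34.3%. In 67NR, 5 were likewise higher than in 4T1 and 5 than in 4T1.2, against 34.4% and 34.1%. Between 66cl4 and 67NR, 2 were higher in 66cl4 and 1 in 67NR, against 22.2% and 22.4%. The 7 markers were all higher in replicate 1 of 66cl4 than in replicate 2, against 44.9% of all genes, with a median of 0.23. Their sum was 4460 to 5370 CPM in 66cl4, 3120 to 3210 in 67NR and 5480 to 7460 in 4T1.2 and 4T1, and Thy1 had at most 2 counts in each library. Zeb1, a repressor of epithelial genes, had 65 and 59.9 CPM in 66cl4, 63 and 65.2 in 67NR and 0.264 to 0.458 elsewhere. The part of these marker levels in the results was not tested. Markers of epithelium were at 717 to 719 CPM in 66cl4, 464 to 529 in 67NR, 1510 to 1770 in 4T1.2 and 2260 to 2990 in 4T1. Krt8, a keratin of simple epithelium, had 16981 to 77057 counts in each library, while Epcam, an epithelial adhesion molecule, was at 0 counts in both 66cl4 libraries and at most 1 in 67NR, against 778 to 2378 in 4T1.2 and 4T1. Of 10 housekeeping genes, 7 passed across the lines, against 84.8% of all genes. Compared with 66cl4, 6 (60%) were higher in 4T1, 4 (40%) in 4T1.2 and 2 (20%) in 67NR, against 34.9%, 34.3% and 22.4% of all genes, and 1 was lower in each comparison, with a median of 0.45 for 4T1 over 66cl4. Library totals ran from 37159840 to 66269681 counts, with 48608212 and 46127747 in 66cl4, and within a line the log2 CPM of the replicates had Pearson correlations of 0.995 to 0.996 across genes, which are not independent replicates. Cultures of a line were not alike within sampling noise in any line.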

How the data were processed

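RNA-seq of 8 cultures (4 lines, 2 biological replicates each) was deposited by the authors as a table of raw counts per Entrez gene for mm10. The authors counted reads with featureCounts, and the strand setting is not given in the sources used here. Reads of overlapping antisense genes can therefore not be separated. The table holds 27179 genes, of which 93.0% had an entry in the gene tables. Genes without an entry, ribosomal and predicted genes and genes failing edgeR's default filter were removed, which left 13928. The counts were tested in edgeR 4.0.16 (R 4.3.3) with TMM scaling and a quasi-likelihood fit with a mean per line over all 8 libraries (4 residual degrees of freedom, biological coefficient of variation 9.74%). Contrasts were all lines together, each pair, and 4T1/4T1.2 against 66cl4/67NR. P-values were adjusted by the Benjamini-Hochberg method over all genes tested, with a threshold of 0.05. Fold changes used a prior count of 0.125, and standard errors were taken from the fold change and its F value. CPM used the TMM-scaled library size, and RPKM used the gene lengths in the deposited table. The pipeline was tested on simulated counts.

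The members and gene lists were chosen with earlier results of these data known. By rule, CPM in each library are given for members with a mean of at least 1 CPM in the highest line, and counts for those the results turn on. Of each pathway list, the route from receptor to ISGF3, every gene of short lists and the 4 genes with the widest range were named, and Ifnb1, Ptprc, Siglech, Thy1 and Krt8 were chosen after their values were seen. An item is not reported here. Alternatives were another normalization, other filters and tools, a fold threshold, a replicate block and leaving out each library. Shared sequence was counted as 75-base stretches of GRCm38 transcripts that occur in another gene. Library depth was 37159840 to 66269681 counts, and a limit of 3 counts for a gene at 0 covers counting error only.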

Additional observations from a re-analysis of the deposited data

How the results depend on the processing

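Over the members' comparisons, 5956 values were obtained under the alternatives. In 5694 of them the side of the threshold was as reported, in 193 the call was lost and in 69 a call was gained. A call was reversed in 0. The 5694 include 52 values whose sign changed, with a call under neither setting. Testing for a difference of more than 2-fold (a log2 value of 1) lowered many counts: for 4T1.2 over 4T1 to 0, for 4T1.2 over 67NR to 6, for 67NR over 4T1.2 to 2, for 4T1 over 66cl4 to 1, for 4T1 over 67NR to 2, for 67NR over 4T1 to 2, for 67NR over 66cl4 to 0, and for 4T1/4T1.2 over 66cl4/67NR to 2, with 10 in the opposite direction. Members higher in 66cl4 fell from 35 to 27 over 4T1.2, from 36 to 30 over 4T1 and from 38 to 34 over 67NR. Members higher in 66cl4 than in each other line fell from 34 to 26. The numbers of all genes under the same test count both directions of a comparison. They were 303 for 4T1.2 and 4T1, 3514 for 4T1.2 and 66cl4 and 3431 for 4T1.2 and 67NR. For 4T1 and 66cl4 there were 3686, for 4T1 and 67NR 3406, for 66cl4 and 67NR 1055 and for the 4T1/4T1.2 grouping 3621. Of all genes, 315 were higher in 66cl4 than in each other line, against 1685 without the fold threshold. A fit of 4T1.2 and 4T1 alone gave 1727 genes. Without the filter on low counts 2 ligands were called, and a stricter filter tested 40 members.

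With each library left out in turn, the members higher in 4T1.2 than in 4T1 numbered 6 to 19, those higher in 4T1 than in 66cl4 2 to 4, those higher in 4T1 than in 67NR 10 to 20, the ligands called 0 to 1, all genes called between 4T1.2 and 4T1 1373 to 3112 and those between 66cl4 and 67NR 4142 to 6938. The fit with the replicate number as a block gave 16 members higher in 4T1.2 than in 4T1 and 2888 genes between these lines, against 15 and 2687. The labels do not say whether equal replicate numbers pair cultures of different lines. The correlations of the replicate deviations between lines lay between -0.12 and 0.27, which cannot settle this. The other scaling, by the size factors of DESeq2, moved the median of all genes by no more than 0.1 on the log2 scale. Like TMM, it takes the bulk of genes as unchanged, so this median is held near 0 and cannot show an effect on the members. With it, 34 members were higher in 66cl4 than in each other line, the same number as with TMM. At these depths, the ligands, Cxcl11 and Ifitm1 were limited by few counts.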
